A study of Mus musculus with 18 samples.

Results

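Leukocytes leave the blood by a fixed series of contacts with the vessel wall, and 9 genes for the molecules of these contacts were followed in the spinal dorsal horn (DHSC) of mice after formalin injection. They were taken from the count table by gene symbol, and all 9 of the 9 listed symbols were found, each with 1 Ensembl gene ID, among 55573 genes. The samples came from adult C57BL/6J mice that had received 2% formalin under the skin of the left hind paw, and the dorsal horn on the injected side of the lumbar cord was taken 2 h later. There were 6 Male samples, 6 F1/Proestrus samples from females in proestrus, and 6 F2/Metestrus samples from females in metestrus, where F1 and F2 name the type of pain behavior that the study ties to the estrus stage. Every group received formalin, so levels without formalin were not analysed here. The mice carried no introduced allele. The study treats the samples as biological replicates, and the labels do not say whether each came from a separate animal, so a p-value measures the spread between these samples. The tissue is a bulk dissection, and the vessels, meninges and blood cells in it were not separated.

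Rolling of leukocytes along the endothelium rests on selectins, which are held inside resting vessel cells or made on demand and bind sugar-bearing ligands on leukocytes. Firm arrest follows when integrins, which are pairs of an alpha and a beta subunit, are switched on by chemokine signals and bind cell adhesion molecules of the immunoglobulin family on the endothelium. In the central nervous system these contacts take place mainly in the venules of the meninges and parenchyma, and microglia, the resident macrophages, also carry integrins of the beta 2 family. Among the 9 genes, Sele (E-selectin) and Selp (P-selectin) encode the endothelial selectins, P-selectin being found in platelets too. Icam1, Icam2 and Vcam1 encode the endothelial ligands of integrins, and Vcam1 is also transcribed in other cells of the cord. Itgb2 encodes the beta 2 subunit (CD18), whose partners include Itgal (alpha L, completing LFA-1) and Itgax (alpha X, CD11c). Itga4 encodes alpha 4, which pairs with beta 1 in VLA-4, the receptor for VCAM-1.

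The promoter windows of Icam1, Sele and Selp, 300 bases each, are shown because the transcription of Icam1 and Sele by NF-kB is the textbook route by which inflamed endothelium acquires them. RefSeq (GRCm38.p6) gave such a window, from 250 bases before to 50 bases after the annotated start, for 5 of the 9 members. The windows are chr9:21015690-21015989 for Icam1, chr1:164047984-164048283 for Sele and chr1:164115014-164115313 for Selp, each read 5′ to 3′ on the + strand, with capitals marking every match to GGANNTTCC, a form of the NF-kB site, or to TATAAA.
Icam1: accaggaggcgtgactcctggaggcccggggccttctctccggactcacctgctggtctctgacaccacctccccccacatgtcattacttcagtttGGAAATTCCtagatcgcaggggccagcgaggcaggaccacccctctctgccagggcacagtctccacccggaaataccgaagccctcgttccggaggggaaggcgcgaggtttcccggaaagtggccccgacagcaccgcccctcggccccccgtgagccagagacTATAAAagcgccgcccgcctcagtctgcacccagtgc
Sele: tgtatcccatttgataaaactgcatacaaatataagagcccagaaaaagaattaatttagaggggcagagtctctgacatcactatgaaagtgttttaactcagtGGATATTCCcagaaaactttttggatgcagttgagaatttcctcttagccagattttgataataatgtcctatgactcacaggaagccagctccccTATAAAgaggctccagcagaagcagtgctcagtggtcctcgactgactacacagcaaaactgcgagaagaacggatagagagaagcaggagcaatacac
Selp: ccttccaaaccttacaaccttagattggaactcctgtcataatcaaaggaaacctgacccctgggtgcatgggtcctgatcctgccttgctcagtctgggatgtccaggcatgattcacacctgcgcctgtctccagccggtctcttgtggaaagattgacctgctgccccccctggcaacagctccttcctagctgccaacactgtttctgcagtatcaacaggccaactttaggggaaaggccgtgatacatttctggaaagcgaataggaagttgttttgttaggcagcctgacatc
Both strands were searched, and the letters were chosen after the sequences had been seen. Icam1 held GGAAATTCC and Sele held GGATATTCC, each as read on the + strand, and GGANNTTCC occurred in 4.26% of 32851 promoter windows of the same length. The Icam1 match also fits this pattern when read on the - strand. TATAAA was found in Icam1 and Sele and in 13.6% of all windows. In Icam1 it lay after the annotated start that sets the window, and in Sele before it. Neither string was in the Selp window. These matches describe the letters in the windows and carry no measurement of binding.

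Positions are those of GENCODE vM21 on GRCm38. Sele and Selp are both on chromosome 1, at 164048234 to 164057677 and 164115264 to 164150026, with 57.6 kb between them. Itgal (127296260 to 127335138) and Itgax (128129547 to 128150657) are both on chromosome 7, with 794 kb between them, and Itgax lies 11.1 kb from Itgam, the gene of another beta 2 partner. Icam1 is on chromosome 9 at 21015985 to 21028817, and 0.555 kb separate it from Icam4, a further member of its family. Vcam1 is on chromosome 3 (116109949 to 116129688, - strand), Icam2 on chromosome 11 (106377656 to 106388075, - strand), Itgb2 on chromosome 10 (77530252 to 77565708) and Itga4 on chromosome 2 (79255426 to 79333123). Genes on the opposite strand overlap 4 members, and the sources do not state that counting used the strand, so their reads cannot be told apart. The overlapping gene Gm47079 had a mean of 1.31 CPM, 28.5% of the Icam1 level, and Gm43109 had 4.61% of the Vcam1 level. Gm16548 and Gm16587, which overlap Selp, stood at 63.6% and 10.4% of its level, and Cerkl, which overlaps the end of Itga4, at 24.9%.

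Expression is given as CPM, the read count of a gene scaled to a common library total after TMM normalization over the 18 samples, and as CPM per kb of merged exons where genes are compared with each other. A sample held 73590509 to 125724156 counted reads. At this depth 3 counts, taken as the smallest signal that can be shown, were worth 0.0240 to 0.0407 CPM, a limit for counting error only. Numbers 27 to 35 and 188 to 196 mark the libraries in the count table, and every group has 3 samples in each of these 2 series.

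Transcripts of Vcam1, Icam2 and Icam1 were well covered, while those of the selectins and of the lymphocyte and dendritic cell integrins were scarce. Per kb of exon, Vcam1 had the highest level of the 9 genes, with 4.15 ± 0.463 CPM per kb (SD, n = 18). Itgb2 followed at 2.49 ± 0.420, Icam2 at 1.99 ± 0.298 and Icam1 at 1.05 ± 0.331 CPM per kb. Itga4 stood at 0.159 ± 0.0292 CPM per kb. The remaining genes were lower, Itgal with 0.04997 ± 0.0256, Selp with 0.0371 ± 0.0251, Itgax with 0.0258 ± 0.0238 and Sele with 0.0204 ± 0.0248 CPM per kb. Vcam1 exceeded Itgb2 in 18 of 18 samples, Itgb2 exceeded Icam2 in 16, and Icam2 exceeded Icam1 in 18, although the ranges of each of these neighbouring pairs overlapped. Icam1 and Itga4 did not overlap, nor did Itga4 and Itgal. Below Itgal the order was within the spread of the samples, since Itgal exceeded Selp in 11 samples, Selp exceeded Itgax in 12 and Itgax exceeded Sele in 11. With the longest transcript of each gene in place of merged exons, Icam2 (2.95) stood above Itgb2 (2.55) and Vcam1 reached 9.01 CPM per kb.

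**Figure D1:**
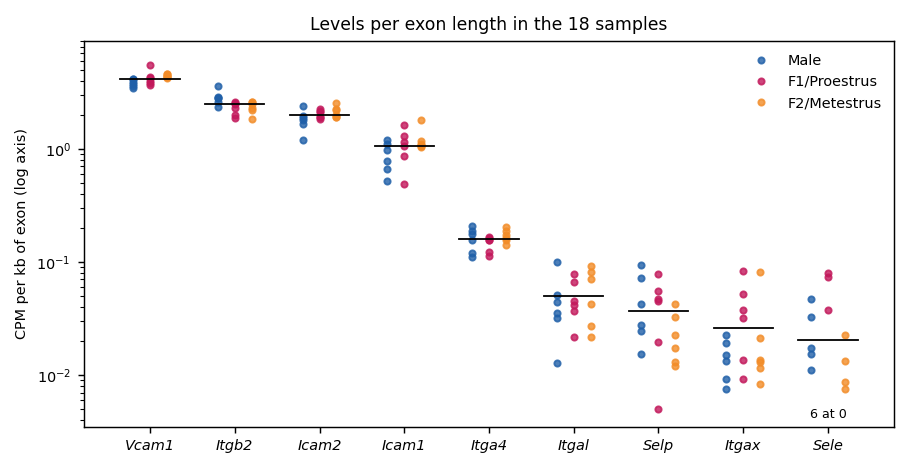
CPM per kb of merged exons (log axis) of the 9 genes, ordered by their mean (black line), with 1 point per sample colored by group. Vcam1 is highest and Sele lowest, and the 6 samples without a Sele read are written as a number because 0 has no place on a log axis.

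Integrin subunits reach the cell surface as pairs, so the alpha subunits were set against the beta subunit they share. Itgal transcripts amounted to 2.04% ± 1.01 of those of Itgb2 per kb of exon (SD, n = 18), with a range of 0.491% to 3.72%. Itgax amounted to 1.06% ± 0.960 of Itgb2. Itgad, which encodes alpha D, reached 20.2% ± 5.55 of Itgb2. Itgam, the alpha M subunit of microglia and myeloid cells, has 2 Ensembl IDs under its symbol, with means of 19.4 and 16.6 CPM. GENCODE vM21 gives 1 of these IDs as a separate gene that overlaps Itgam, and the level of Itgam per length is uncertain for that reason. Its first ID alone exceeded the level of Itgb2 in each sample, at 116% to 204% per kb. Itga4 amounted to 0.517% ± 0.101 of Itgb1, which most cells of the cord transcribe, and to 21.8% ± 4.14 of Itgb7, its other beta partner.

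The first comparison asked whether males differed from females, the females of both stages forming 1 group. Of the 9 members 8 passed the filter on low counts and 0 passed an FDR of 5%, which 0.197% of the 24862 tested genes did (49 genes, edgeR's quasi-likelihood test with Benjamini-Hochberg adjustment). At an unadjusted p under 0.05 there were 3 members against 9.72% of all genes, and these were Itgb2, with a higher mean in males (5.84% of all genes), and Vcam1 and Itgax, with lower means in males (3.87% of all genes). The members' median log2 fold change was -0.19, beside -0.0013 over all tested genes, with 3 members above 0 and 5 below it. DESeq2, the tool of the study, also called 0 members, with an adjusted p of 0.128 for Itgb2. In a bulk sample fewer cells of a type and less RNA per cell cannot be told apart.

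**Figure D2:**
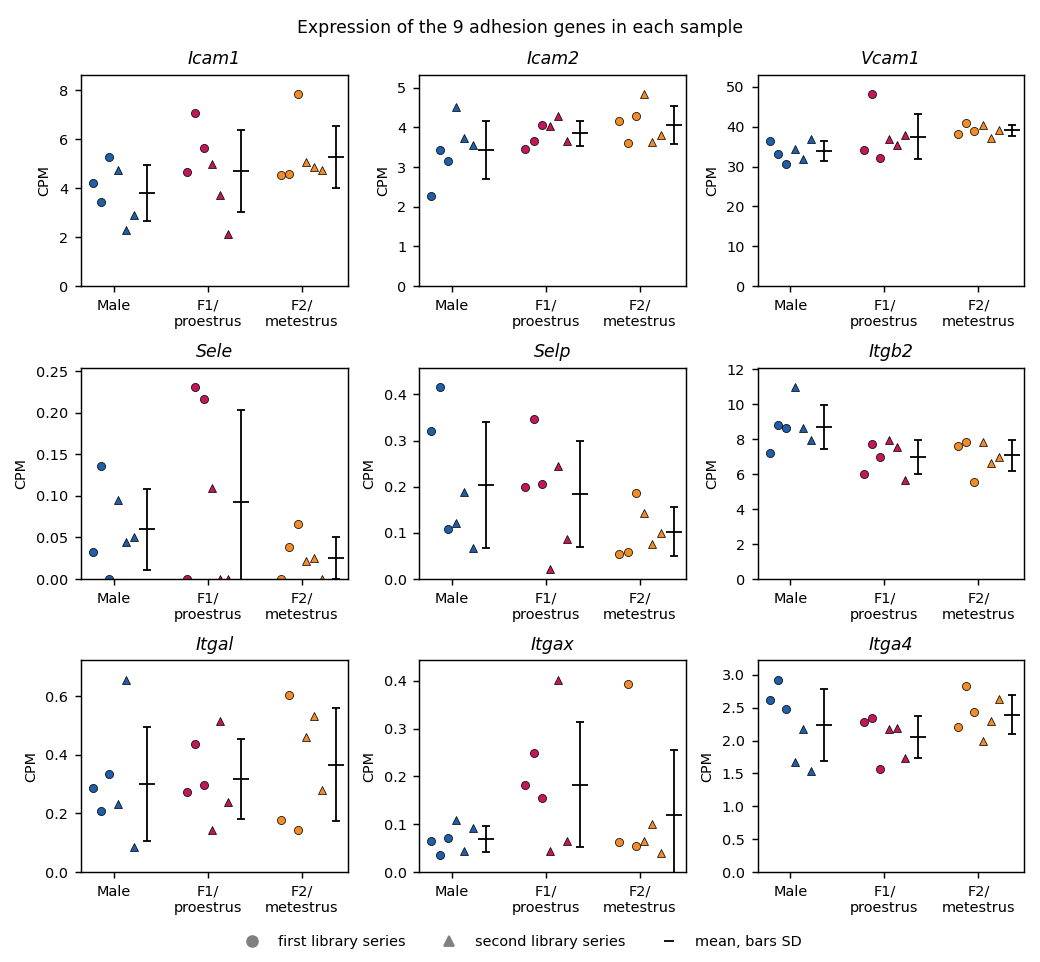
CPM of the 9 genes in each sample, by group, on axes that start at 0, with circles for the first library series and triangles for the second. The horizontal mark and bars give the mean and SD of the 6 samples of a group, cut off at 0, and 5 of 6 males lie above every female for Itgb2 while all 6 males lie below every F2/Metestrus sample for Vcam1.

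Itgb2, the shared subunit of the leukocyte beta 2 integrins, had 7.20, 8.63 and 10.999 CPM as the lowest, median and highest male value. In F1/Proestrus these values were 5.65, 7.26 and 7.96 CPM, and in F2/Metestrus 5.55, 7.29 and 7.85 CPM. Thus 5 of 6 males lay above all 12 females, a pattern that 0.282% of tested genes showed or exceeded, and Male 1 lay among the females. The mean was 8.71 ± 1.27 CPM in males (SD, n = 6) and 7.03 ± 0.879 in females (n = 12), a log2 fold change of 0.31 (SE 0.0922, 95% interval 0.12 to 0.50, or 1.24-fold). Its p in edgeR was 0.00315 before and 0.271 after adjustment over all genes. The 2-sided exact permutation test on its CPM, over 18564 ways of choosing 6 samples of 18, gave p = 0.00237, unadjusted. Its fold change on the log2 scale was 0.23 in samples of the first library series (adjusted p = 0.659 in edgeR) and 0.37 in those of the second (adjusted p = 0.340). Male 4 held the highest value, and leaving it out gave 0.22.

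Markers of the myeloid cells that carry beta 2 integrins were read beside Itgb2. Of 12 microglia markers 0 were called, 10 had a higher mean in males and 5 of these had an unadjusted p under 0.05 (5.84% of all tested genes had such a p and a higher mean in males), and their summed level was 481 to 555 CPM in males, 424 to 505 in F1/Proestrus and 444 to 503 in F2/Metestrus. Csf1r was nearest to a call (log2 fold change 0.20, adjusted p = 0.0548 in edgeR), and the study names it among its male-enriched genes. For Csf1r 5 of 6 males lay above every female, a pattern that 0.282% of tested genes showed or exceeded. Neutrophil markers had sums of 22.4 to 37.2 CPM in males, 7.18 to 14.6 in F1/Proestrus and 11.8 to 15.4 in F2/Metestrus, with Lcn2 holding 28.5% of the sum. Lcn2 was at 9.70 ± 5.66 CPM in males and 2.47 ± 0.646 in females, and the study lists astrocytes, microglia and endothelial cells among its other reported sources. Of the 12 neutrophil markers, 10 were tested, and all 10 had a higher mean in males with an unadjusted p under 0.05, and 2 were called, beside 0.149% of all tested genes called higher in males. These were Lcn2 with a log2 fold change of 1.97 (adjusted p = 0.000300 in edgeR) and Mpo with 1.37 (adjusted p = 0.0161 in edgeR). Both called genes are named by the study from these samples, so this count is not independent evidence of their direction, and Ly6g and Cxcr2, which define mature neutrophils, had too few counts to be tested. Perivascular and meningeal macrophage markers summed to 35.2 to 52.3 CPM in males, 26.3 to 55.5 in F1/Proestrus and 28.5 to 39.7 in F2/Metestrus. Of these 8 genes 0 were called, 7 had a higher mean in males, and 3 of them (Stab1, Cd163 and F13a1) had an unadjusted p under 0.05.

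Markers of cells not known for beta 2 integrins also differed between the sexes. Dorsal horn neuron markers summed to 620 to 900 CPM in males, 441 to 689 in F1/Proestrus and 451 to 587 in F2/Metestrus, with a higher mean in males for 8 of 8. Of these, 6 had an unadjusted p under 0.05 and 2 were called. Among all tested genes 5.84% had such a p and a higher mean in males, and 0.149% were called higher in males. The 2 called were the neuropeptide genes Penk (log2 fold change 0.63, adjusted p = 0.000449 in edgeR) and Grp (0.92, adjusted p = 0.00539 in edgeR). Of 6 Schwann cell markers, all with a higher mean in males, 4 had an unadjusted p under 0.05 and 1 was called, beside the same shares. This was Ncmap, a gene of peripheral myelin (log2 fold change 0.67, adjusted p = 0.00654 in edgeR). Motor neuron and ventral horn markers went the other way, with a lower mean in males for 6 of 6. Their median log2 fold change was -0.59, with 0 called and 0 at an unadjusted p under 0.05. As a description over the 18 samples, which share library series and depth, Itgb2 had a Spearman correlation of 0.593 with the mean log2 level of the dorsal horn neuron markers, 0.482 with that of perivascular and meningeal macrophages, 0.474 with Schwann cells, 0.3602 with microglia and 0.354 with neutrophils. With the motor neuron and ventral horn markers it was -0.176 over the 18 samples. For the dorsal horn neuron markers it was 0.633 within the first series of 9 samples and 0.567 within the second. The part of all these cells in the Itgb2 values was not tested.

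Vcam1, whose product binds alpha 4 integrins, had 30.7, 33.8 and 36.9 CPM as the lowest, median and highest value of the males. The corresponding values were 32.2, 36.3 and 48.3 CPM in F1/Proestrus and 37.2, 39.0 and 40.9 CPM in F2/Metestrus. All 6 males lay below the median of the females, as they did for 3.73% of tested genes, and below every F2/Metestrus sample, as they did for 0.318%, whereas they overlapped with F1/Proestrus. The mean of the males was 33.9 ± 2.49 CPM (SD, n = 6) against 38.3 ± 4.02 in females (n = 12). The log2 fold change was -0.18 (SE 0.0673, 95% interval -0.32 to -0.04), with an adjusted p of 0.390 in edgeR (unadjusted 0.0155), and the exact permutation test on the CPM gave p = 0.0216. The log2 fold change was -0.23 in the first library series and -0.13 in the second. Over the 18 samples Vcam1 had a Spearman correlation of -0.0217 with the mean log2 level of the endothelial markers, beside 0.434 for Icam1 and 0.282 for Icam2. Each had a larger positive value with another marker list. For Vcam1 this was 0.688 with T cells and NK cells, many of whose markers had few counts. For Icam1 it was 0.453 with motor neurons and ventral horn, and for Icam2 0.492 with red blood cells. Which cells the Vcam1, Icam1 and Icam2 values came from was not tested.

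Icam1, which binds LFA-1, had 2.28, 3.81 and 5.26 CPM in males from lowest to highest with the median between them, 2.14, 4.81 and 7.06 in F1/Proestrus and 4.55, 4.79 and 7.85 in F2/Metestrus. Its groups overlapped, although 5 of 6 males lay below the female median, an ordering whose share over all genes was not counted. The log2 fold change was -0.39 (SE 0.203, 95% interval -0.81 to 0.03, adjusted p = 0.538 in edgeR). For Icam2, which is held on resting endothelium, the lowest, median and highest values were 2.28, 3.49 and 4.503 CPM in males, 3.47, 3.84 and 4.28 in F1/Proestrus and 3.61, 3.99 and 4.85 in F2/Metestrus. Here 3 males lay below all 12 females and 1 lay above the female median, and the share of all genes with such an ordering was not counted. Its log2 fold change of -0.20 (SE 0.107, 95% interval -0.43 to 0.02, adjusted p = 0.538 in edgeR) was -0.41 in the first library series and -0.04 in the second, and -0.12 without Male 1, the lowest sample. The sum of 10 endothelial markers was 240 to 291 CPM in males, 253 to 283 in F1/Proestrus and 251 to 281 in F2/Metestrus, and 0 of them were called, with 3 lower in males at an unadjusted p under 0.05 (3.87% of all tested genes).

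Selectin transcripts were near the limit of detection. Selp had 0.0674, 0.156 and 0.417 CPM as the lowest, median and highest male value, 0.0220, 0.203 and 0.347 in F1/Proestrus and 0.0534, 0.0878 and 0.187 in F2/Metestrus, from 2 to 46 reads in a sample. The log2 fold change of males against females was 0.50 (SE 0.441, 95% interval -0.42 to 1.42, adjusted p = 0.718 in edgeR), and it was 0.16 without Male 2, which had the most reads, and 0.30 without Male 1. Against F1/Proestrus alone it was 0.12 and against F2/Metestrus alone 0.99 (adjusted p = 0.972 and 0.587 in edgeR), and the difference between these was tested only as the comparison of the stages given further on. Sele did not pass the filter. It had 0 to 15 reads in a male, 0 to 26 in an F1/Proestrus and 0 to 6 in an F2/Metestrus sample, and 36, 57 and 14 reads in all. A count of 0 was found in 1 male, 3 F1/Proestrus and 2 F2/Metestrus samples, which at this depth allows up to the 3-count level of that sample, and the highest value was 0.231 CPM. An exact permutation test, 2-sided, on Sele gave p = 0.992 between the sexes and 0.216 between the female groups.

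Among the alpha subunits, Itga4 had 1.53, 2.33 and 2.92 CPM in males from lowest through median to highest, 1.57, 2.18 and 2.34 in F1/Proestrus and 1.99, 2.36 and 2.83 in F2/Metestrus. Males and females overlapped throughout, with a log2 fold change of 0.01 (SE 0.135, 95% interval -0.27 to 0.29, adjusted p = 0.985 in edgeR). Itgal, carried by lymphocytes above all, had 0.0842, 0.260 and 0.656 CPM in males, 0.143, 0.286 and 0.516 in F1/Proestrus and 0.143, 0.370 and 0.605 in F2/Metestrus, from 10 to 63 reads. Its log2 fold change was -0.20 (SE 0.3602, 95% interval -0.95 to 0.55, adjusted p = 0.878 in edgeR) with all samples, -0.59 without Male 5, the highest sample, and -0.00695 without Male 6, the lowest. Leaving out Male 2, F1/Proestrus 5 or F2/Metestrus 2 gave -0.12, -0.13 and -0.09. Markers of T cells and NK cells summed to 1.51 to 1.97 CPM in males, 1.101 to 2.07 in F1/Proestrus and 1.54 to 2.34 in F2/Metestrus, with Lck holding 63.8% of the sum. Of the 10, 4 had enough counts to be tested and 0 were called. Lck had a higher mean in males (log2 fold change 0.35, adjusted p = 0.463 in edgeR), and the other 3 tested had a lower one.

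Itgax, known from dendritic cells and from activated microglia, was present at 4 to 46 reads. Its lowest, median and highest values were 0.0362, 0.0681 and 0.108 CPM in males, 0.0440, 0.168 and 0.403 in F1/Proestrus and 0.0398, 0.0641 and 0.394 in F2/Metestrus. The values above every male came from 5 of 12 females, namely F1/Proestrus 1, 2, 3 and 5 and F2/Metestrus 2. In turn, 4 of 6 males lay below the female median, while the F2/Metestrus median lay below that of the males. The log2 fold change was -1.14 (SE 0.522, 95% interval -2.23 to -0.06), with an adjusted p of 0.496 in edgeR (unadjusted 0.0401). With voom and sample quality weights it was -0.68 (adjusted p = 0.741, unadjusted 0.218). Itgax had too few counts to be tested in the second library series alone or against F2/Metestrus alone. An exact permutation test, 2-sided, on the CPM gave p = 0.156. Markers of dendritic cells summed to 46.1 to 53.3 CPM in males, 44.4 to 59.1 in F1/Proestrus and 46.7 to 60.7 in F2/Metestrus, with Flt3 holding 43.2% of the sum, and Xcr1, which defines a class of these cells, had too few counts to be tested.

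**Figure D3:**
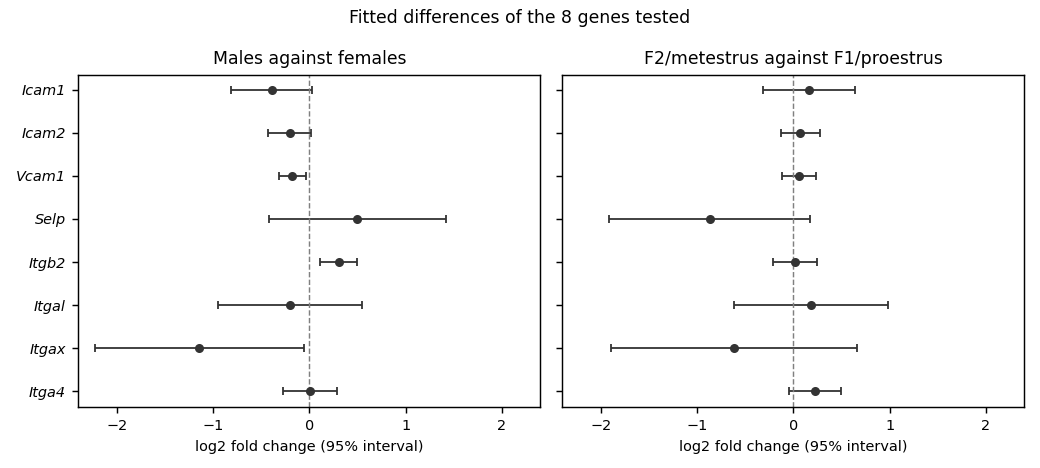
Log2 fold change of the 8 genes tested, with its 95% interval from edgeR, for males against females (left, n = 6 and 12) and F2/Metestrus against F1/Proestrus (right, n = 6 and 6). On the left the intervals of Itgb2, Vcam1 and Itgax leave out 0 before adjustment over all genes, and on the right every interval includes 0.

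Estrus stage was examined within the 12 females. Of 8 members tested 0 were called and 0 had an unadjusted p under 0.05, beside 0 of 24042 genes called by edgeR (0.0%) and 2.48% of genes at an unadjusted p under 0.05, and DESeq2 called 2 genes, neither of them a member. With F2/Metestrus set against F1/Proestrus, the median log2 fold change of the members was 0.06, beside -0.00038 over all genes. Selp had the smallest p of the members, 0.0957, with a log2 fold change of -0.87 (SE 0.490, 95% interval -1.92 to 0.17, adjusted p = 0.99998 in edgeR) and 6 of 6 F2/Metestrus samples below the F1/Proestrus median. Itga4 followed with 0.22 (SE 0.126, 95% interval -0.05 to 0.49, exact permutation p = 0.0887, 2-sided), and 3 of 6 F2/Metestrus samples lay above all F1/Proestrus samples. The share of all genes with such orderings between the stages was not counted.

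For Itgb2, Icam2 and Vcam1 the intervals between the stages were narrow. Itgb2 differed by 0.02 on the log2 scale (95% interval -0.21 to 0.25), Icam2 by 0.07 (-0.13 to 0.27) and Vcam1 by 0.06 (-0.12 to 0.24). Icam1, although also well covered, had a wider interval, with a difference of 0.16 (-0.32 to 0.64). The intervals of the scarce genes were wide, with 0.19 (-0.61 to 0.99) for Itgal and -0.62 (-1.89 to 0.66) for Itgax. The F1/Proestrus samples of Vcam1 spread more widely (SD 5.67 CPM, n = 6) than those of F2/Metestrus (SD 1.36 CPM, n = 6). Without F1/Proestrus 2, its highest sample, the difference was 0.15 (adjusted p = 0.9997 in edgeR, 0.0218 before adjustment).

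The library series was also compared, with the group kept in the fit, because 25.9% of 26075 genes were called between the 2 series. Of the 9 members, all of which passed the filter there, 0 were called. Icam1 had the smallest p, with 3.94 ± 1.20 CPM in the second series and 5.25 ± 1.41 in the first (SD, n = 9 each) and a log2 fold change of -0.42 (adjusted p = 0.0696 in edgeR). DESeq2 gave an adjusted p of 0.0364 for it. With the series as a covariate the log2 fold change of Icam1 between the sexes was -0.39, of Vcam1 -0.18 and of Itgb2 0.31, and 0 members were called.

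The other genes of the adhesion pathway were taken from lists, and 0 of their members were called in either comparison. The counts at an unadjusted p under 0.05 between the sexes stand beside 9.72% of all tested genes, 5.84% with a higher and 3.87% with a lower mean in males. In the list of selectins and selectin ligands, 6 of 10 had a higher mean in males and 3 an unadjusted p under 0.05, with a median log2 fold change of 0.06. Selplg, the gene of the P-selectin ligand PSGL-1, was at 47.9 ± 4.55 CPM in males and 42.2 ± 5.05 in females (log2 fold change 0.18, adjusted p = 0.429 in edgeR). Cd34, a sialomucin of endothelium, was at 28.5 ± 3.39 CPM in males and 31.5 ± 2.26 in females (log2 fold change -0.14, adjusted p = 0.496 in edgeR). Among 12 other immunoglobulin-family and junction molecules 4 had a higher mean in males. The junctional adhesion molecules Jam2 and Jam3 differed in opposite directions, Jam2 with a log2 fold change of -0.12 (adjusted p = 0.390 in edgeR) and Jam3 with 0.16 (adjusted p = 0.39996 in edgeR).

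Of 12 other integrin subunits 3 had an unadjusted p under 0.05, all with a higher mean in males, and the median of the list was -0.06. Itgam (first ID) had 21.1 ± 1.99 CPM in males and 18.5 ± 1.09 in females, a log2 fold change of 0.19 (adjusted p = 0.278 in edgeR). Itgae, the alpha E subunit, had 1.85 ± 0.213 CPM in males and 1.49 ± 0.225 in females, with 6 of 6 males above the female median (log2 fold change 0.30, adjusted p = 0.344 in edgeR). The share of all genes with that ordering was not counted. Of 18 genes of integrin activation 12 had a higher mean in males and 3 of these an unadjusted p under 0.05. Rasgrp2, the exchange factor that activates the small GTPase Rap1 before integrins are switched on, had 0.18 (SE 0.0624, adjusted p = 0.358 in edgeR).

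Genes of the NF-kB pathway, the route that induces Icam1, Vcam1 and Sele, gave 11 of 12 tested, with 8 higher and 3 lower in the mean of males and a median log2 fold change of 0.07. Irf1, a transcription factor that acts with NF-kB, was at 6.83 ± 0.765 CPM in males and 8.86 ± 2.86 in females, with 0 of 6 males above the female median (log2 fold change -0.37, adjusted p = 0.475 in edgeR). Every male lay below the female median for 3.73% of tested genes. The female groups of Irf1 differed in level, with 10.1 ± 3.69 CPM in F2/Metestrus and 7.59 ± 0.689 in F1/Proestrus (unadjusted p = 0.0408, adjusted p = 0.99998 in edgeR). Nfkbia, the inhibitor that NF-kB itself induces, was at 98.4 ± 13.1 CPM in males and 88.4 ± 7.34 in females (log2 fold change 0.15, adjusted p = 0.493 in edgeR). Tnf, a cytokine inducer of the endothelial molecules, had too few reads to be tested, at most 12 in a sample.

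The members were then compared with each other across samples, as a description. Over the 18 samples the 28 pairs of tested members had Spearman correlations of log2 CPM from -0.480 to 0.432, and 0 pairs exceeded 0.5 in size. The sign was the same in both library series for 14 of the 28 pairs. Icam1 and Icam2 had 0.3003 over all samples, 0.567 within the first series and 0.550 within the second (9 samples each). Samples share their library series, depth and cell makeup, so the points are not independent of these.

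**Figure D4:**
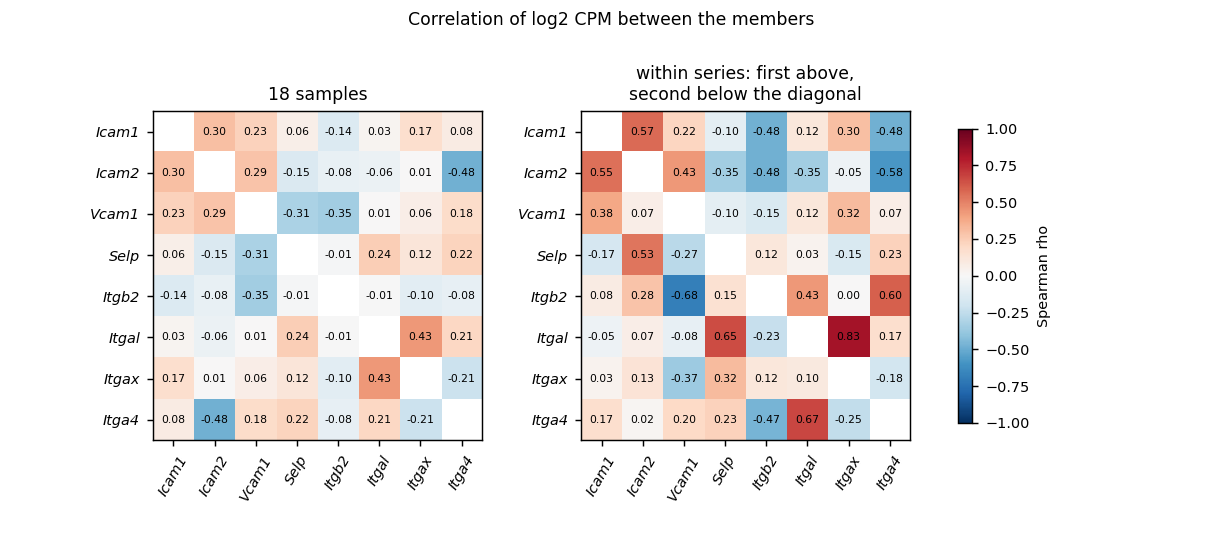
Spearman correlation of log2 CPM between the 8 members tested, over 18 samples (left) and within each library series of 9 samples (right, the first series above the diagonal and the second below it). Over all samples every value lies between -0.480 and 0.432, and many cells on the right differ in color across the diagonal.

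For each tested member the 3 genes most like it in log2 CPM over the 18 samples were listed from 17760 genes with a mean of at least 1 CPM. Vcam1 was most like Slc14a1, which encodes a urea transporter, with a rho of 0.858 over 18 samples, 0.967 in the first series and 0.867 in the second. The next genes were Enpp3 (0.818) and Arhgef26 (0.808). Icam1 was most like Ptgs2, which encodes the inducible cyclooxygenase, with a rho of 0.756 over 18 samples, 0.750 in the first series and 0.633 in the second, followed by Abcb1a, the P-glycoprotein gene of brain endothelium, and Rnf43 (both 0.744). Itgb2 was most like 9130019O22Rik (0.816), Eef1a1 (0.781) and Casq1 (0.773), and Icam2 was most like Hspa9 (0.775), Hspb8 (0.769) and Gm34086 (0.765). Itga4 was nearest to Tll1 (0.798), Lrrk1 (0.792) and Pag1 (0.789), of which Lrrk1 had 0.30 in the first series. The lists of the scarce members rest on few reads, and they were led by Lca5 for Selp (0.783), Fam134b and Gm11349 for Itgal (both 0.843) and Spink10 for Itgax (0.750).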

How the data were processed

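RNA-Seq was measured in 18 ipsilateral DHSC samples. The authors deposited raw counts per Ensembl gene, without normalization. Per the study's methods, reads were uniquely mapped to mm10 with Subread and counted on exons with featureCounts. The methods name TruSeq libraries, whereas the labels describe SMART-Seq amplification and Nextera XT tagmentation, and the Subread version also differs between them (2.0.3 in the submitters' processing notes). Whether counting used the strand is not given in the sources used here. From the second deposited table, which holds the authors' values of their own comparison, the other measure used was the gene symbol paired with each ID. The sex of each sample was taken from the labels.

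Counts were filtered with filterByExpr (minimum count 10, total 15), normalized with TMM and tested with edgeR 4.0.16 in R 4.3.3 (quasi-likelihood, Benjamini-Hochberg, FDR 5%), males against 12 females in all 18 samples and F2/Metestrus against F1/Proestrus in 12. The SE was derived from the log2 fold change and its F statistic, and intervals (95%) use the fit's degrees of freedom. log2 CPM for correlations used a prior count of 2. The test was checked on simulated data. Samples had 73590509 to 125724156 counts. Merged exon lengths came from GENCODE vM21, and of the 55573 IDs 55394 were found there. Where a listed symbol had 2 IDs, the ID with more counts was used.

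The members, the lists and the library series were chosen with earlier results of these data known. The genes named are the members, the 3 genes most like each tested member, in each pathway list those called and the 2 with the smallest p between the sexes, and markers beside a result. Some results that this rule covers are not reported here. Itgad, Itgb1, Itgb7, Tnf and the overlapping genes were named after their values were seen. Alternatives were DESeq2 1.42.0, limma 3.58.1 voom with quality weights, size factors, no filter, robust dispersions, a minimum of 10 counts throughout, a replicate block, the library series as a covariate or alone, each female group alone and leaving out each sample.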

Additional observations from a re-analysis of the deposited data

Results flagged for a closer look

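A sample was singled out where its gap to the nearest sample of its group, divided by the range of the group, exceeded Dixon's 95% critical value of 0.625 for 6 samples. Of 57 groups examined (19 genes in 3 groups), chance alone would mark about 1 in 20. Icam1 was at 7.85 CPM in F2/Metestrus 3, while the other F2/Metestrus samples were at 4.55 to 5.06 CPM. Vcam1 was at 48.3 CPM in F1/Proestrus 2, above the 32.2 to 38.0 CPM of the others. Itgax was at 0.394 CPM in F2/Metestrus 2, from 41 reads, against 0.0398 to 0.101 CPM in the others. Cd34 stood at 34.2 CPM in F1/Proestrus 5 (others 29.3 to 30.0) and at 36.9 CPM in F2/Metestrus 5 (others 30.5 to 32.3). F2/Metestrus 5 also had the lowest Itgam of its group, 15.6 CPM against 18.6 to 19.6, and the highest Itgae, 1.72 CPM against 1.28 to 1.40. The samples stayed in all comparisons.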

How the results depend on the processing

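Under every alternative run for the sexes and for the stages, 0 members were called. The number of all genes called between the sexes moved more, from 49 to 166 with DESeq2, 31 with at least 10 counts in every sample, 134 with the library series as a covariate, 16 in the first and 13 in the second series alone, 13 against F1/Proestrus alone and 22 against F2/Metestrus alone, and it was 25 to 77 when a sample was left out (30 without Male 4, 25 without Male 5, 77 without F1/Proestrus 5). Between the stages DESeq2 called 2 genes in place of 0. With the replicate number as a block 148 genes were called between the sexes and 0 between the stages. The numbers are not shown to pair the samples, since the deviations of same-numbered samples correlated at -0.105 to 0.228, and the best match of a sample in another group had its own number in 10 of 36 cases. Under the block the adjusted p of Itgb2 between the sexes was 0.0749 in edgeR, and the log2 fold change of Itgax was -0.82 (adjusted p = 0.471 in edgeR, unadjusted 0.138).

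Signs turned for Itga4 between the sexes and for Icam1, Itgal and Itgb2 between the stages, none of them called. The log2 fold change of Itga4 between the sexes was -0.0103 with the block and -0.00878 with the series covariate, -0.27 in the second series alone, -0.11 against F2/Metestrus alone and -0.0890 to 0.0869 when a sample was left out. Between the stages Icam1 was at -0.0449 in the first series alone, Itgal at -0.0287 with voom, -0.12 in the first series alone and -0.0223 to 0.383 when a sample was left out, and Itgb2 at -0.0344 to 0.0789 when a sample was left out. Leaving out 1 sample gave 0.0105 (without F2/Metestrus 3) to 0.316 (without F1/Proestrus 2) for Icam1 between the stages and 0.0139 (without F2/Metestrus 4) to 0.106 for Icam2, and Selp between the stages was -1.38 in the first series alone. Icam1 between the library series passed 5% with DESeq2 (adjusted p = 0.0364) and with no filter (adjusted p = 0.0256). The causes were not tested. Depth limits Sele, Selp, Itgal and Itgax, which had at most 63 reads in a sample.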

Other observations

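Beyond the 3 genes most like Selp, the fifth in order was Ackr1, the atypical chemokine receptor of venular endothelium, with a Spearman correlation of 0.744 over 18 samples, 0.933 among samples of the first library series and 0.650 among those of the second. It was named after its value was seen, Selp had 2 to 46 reads in a sample, and no test was run on the pair.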
